A study of Mus musculus with 8 samples.

Results

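The 37 genes described here encode the proteins that hold the basal layer of the epidermis to the basement membrane beneath it: hemidesmosome components, the anchoring fibril collagen, laminin and type IV collagen chains, other matrix proteins of that membrane, and the integrin chains and adaptors that bind them. They were chosen by gene symbol from a list, with no measured value in the rule but with earlier results of these data known. Every symbol had its own entry among the 23171 genes of the deposited count table. Of the 37, 36 had enough reads to be tested, and the nidogen gene Nid2 did not.

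Bulk RNA sequencing was done on epidermis taken after imiquimod, which activates Toll-like receptor 7 and is used to model psoriasis in mouse skin. Of the 8 libraries, 4 came from animals in which Hnrnpu, the gene of an RNA-binding nuclear matrix protein, was knocked out in the epidermis alone (cKO), and 4 came from control animals (WT). All mice received imiquimod, so no untreated level stands beside these values. Not given in the sources used here are the deleted part of Hnrnpu, the Cre line, any allele that the WT mice carry, and the age, sex and strain. The labels call the cells keratinocytes and place all libraries in a single batch.

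In skin, basal keratinocytes carry integrin α6β4, collagen XVII, plectin and dystonin in hemidesmosomes, which tie keratin filaments to the laminin that holds the Lama3 and Lamb3 chains. Collagen VII fibrils then fasten the membrane to the dermis, and inherited loss of any of these links gives blistering. Nidogens and perlecan bridge the laminin and type IV collagen networks, and β1 integrins sit in focal contacts, where they bind laminin, fibronectin and other ligands.

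The libraries held 37158621 to 38865722 counts each, and levels of a gene across libraries are given as CPM, the count scaled to the size of the library with TMM factors. Hnrnpu itself, the targeted gene, was at 190, 373, 355 and 312 CPM in cKO libraries 1 to 4, against 455, 424, 431 and 439 CPM in WT. It was lower in every cKO library but still present, at 70.3% of WT, with an adjusted p of 0.191 in edgeR. The two-sided exact permutation test over the 70 splits of 4 against 4 gave 0.0286, the smallest p it can give. Any gene whose genotypes do not overlap gets that p, so it adds nothing to the lack of overlap. The library labelled cKO replicate 2 had the highest level of the 4. Because the deleted part is not given, reads outside it may still be counted, and the depth of deletion in each library was not analysed here.

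Of the 36 tested genes, 3 fell in cKO epidermis and 1 rose. Tinagl1, which encodes a matricellular protein related to tubulointerstitial nephritis antigen, fell to 19.9% of WT, Nid1 to 24.0% and Itga5, the α chain of the fibronectin receptor, to 38.0%. Col4a4, a type IV collagen chain with very few reads, was 8.57-fold higher. A gene was called at an adjusted p below 0.05 in edgeR's quasi-likelihood test, with Benjamini-Hochberg adjustment over all 14004 tested genes. That rule called 185 of the 14004 genes (1.32%), of which 91 were lower (0.650%) and 94 higher (0.671%). The 4 libraries of each genotype did not overlap for 5 of the 36 tested genes, 4 with all cKO below all WT and 1 the other way, beside 11.1% of all tested genes (5.82% below and 5.26% above). An unadjusted p below 0.05 was reached by 8 of the 36 (7 lower, 1 higher), beside 18.6% of all genes (8.71% lower and 9.87% higher). Fold changes were positive for 15 of the 36 and negative for 21, with a median log2 fold change of -0.07, beside 0.01 over all tested genes. Most genes of epidermal anchorage therefore did not pass the test, and the 4 that did sit in 3 of the roles. Among them, Col4a4 passed the filter on low counts only through its cKO libraries. As the list was chosen with earlier results of these data known, its counts stand beside the shares over all genes as a description. They were not tested against those shares.

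**Figure D1:**
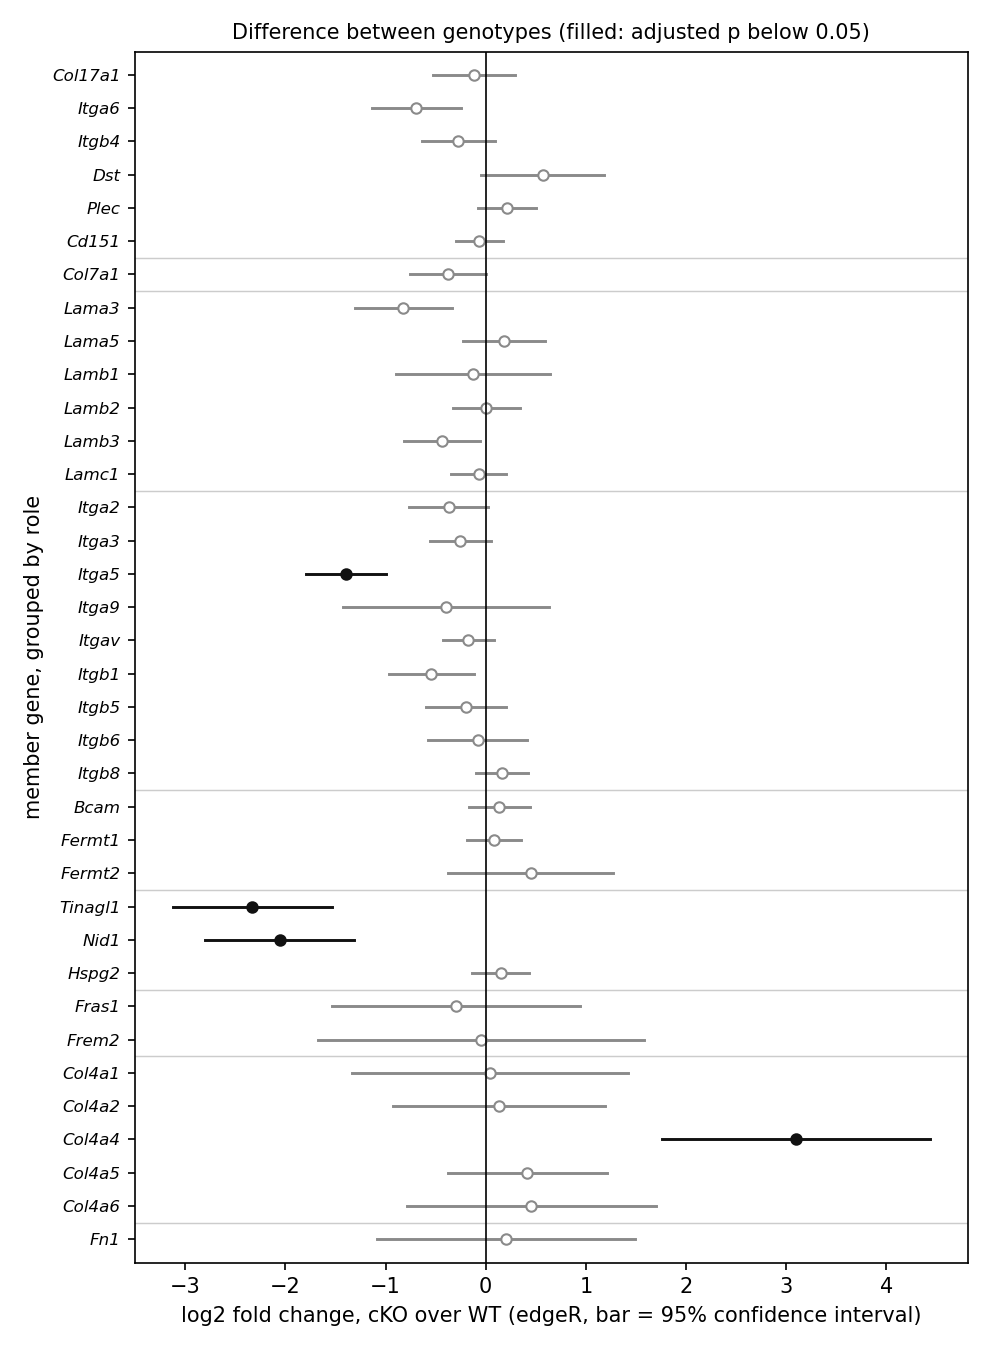
Log2 fold change, cKO over WT, of the 36 tested genes by role, as points with the 95% interval of the edgeR fit; filled points are called. Tinagl1, Nid1 and Itga5 lie at -2.33, -2.06 and -1.39, Col4a4 at 3.10 with the interval 1.76 to 4.43, and most other intervals cross 0.

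The sequence before the transcription start is shown for the 4 called genes, because their RNA levels are what the results turn on. It comes from the RefSeq promoter table (GRCm38.p6), which held 29 of the 37 genes, and runs 5′ to 3′ on the gene's own strand over the 250 bases before the annotated start. Capitals mark matches to any of 4 motifs searched on both strands: AP-1 (TGANTCA), TEAD (GGAATG), the GC box (GGGCGG) and the TATA box (TATAAA). The windows are chr4:130175123-130175372 (minus strand) for Tinagl1, chr13:13437352-13437601 (plus strand) for Nid1, chr15:103366792-103367041 (minus strand) for Itga5 and chr1:82586850-82587099 (minus strand) for Col4a4.
Tinagl1: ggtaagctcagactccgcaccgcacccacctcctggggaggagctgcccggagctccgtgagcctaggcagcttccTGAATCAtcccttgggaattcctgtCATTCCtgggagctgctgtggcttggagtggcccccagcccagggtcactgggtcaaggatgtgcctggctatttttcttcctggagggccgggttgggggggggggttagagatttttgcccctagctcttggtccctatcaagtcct
Nid1: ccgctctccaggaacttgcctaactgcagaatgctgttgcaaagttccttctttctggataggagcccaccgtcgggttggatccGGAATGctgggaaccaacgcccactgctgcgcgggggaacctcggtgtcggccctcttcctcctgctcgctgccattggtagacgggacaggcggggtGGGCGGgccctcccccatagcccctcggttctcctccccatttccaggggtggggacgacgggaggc
Itga5: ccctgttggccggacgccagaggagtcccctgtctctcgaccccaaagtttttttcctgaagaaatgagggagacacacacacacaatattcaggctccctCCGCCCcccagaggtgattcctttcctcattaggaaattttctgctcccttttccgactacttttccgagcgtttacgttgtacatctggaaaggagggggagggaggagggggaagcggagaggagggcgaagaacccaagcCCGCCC
Col4a4: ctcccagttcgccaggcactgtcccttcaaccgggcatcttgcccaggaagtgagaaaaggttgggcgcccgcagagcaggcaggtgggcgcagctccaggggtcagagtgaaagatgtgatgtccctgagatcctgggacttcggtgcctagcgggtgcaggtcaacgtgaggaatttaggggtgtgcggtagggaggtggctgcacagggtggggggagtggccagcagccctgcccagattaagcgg
The Tinagl1 window held an AP-1 match whose first base lies 174 bases before the start, and a TEAD match at 149. The Nid1 window held a TEAD match at 165 and a GC box at 67, the Itga5 window GC boxes at 149 and 6, and the Col4a4 window none of the 4 motifs. Among all 32851 promoter windows of the same length, 6.75% held the AP-1 letters, 12.6% the TEAD letters, 32.7% the GC box and 12.4% the TATA box. The 29 genes had 35 windows, since some have more than 1 annotated start, and of these 35 windows 1 held AP-1, 5 TEAD, 18 the GC box and 1 the TATA box. No motif was present in all 4 printed windows, and a match is a string of letters, not a measured binding site. Tinagl1 has a further annotated start, whose window is not printed and held 4 GC boxes and none of the other motifs.

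Levels between genes are compared per length, as the deposited FPKM (fragments scaled by gene length and by sequencing depth). Col17a1, collagen XVII, had the highest level, 134 ± 32.9 FPKM in cKO and 139 ± 22.9 in WT (SD, n = 4 each). Integrin α6 (Itga6) followed with 44.4 ± 11.1 in cKO and 69.6 ± 8.05 in WT, and Itgb1 with 40.6 ± 11.8 in cKO and 56.4 ± 9.91 in WT. Itga6 was above Itgb1 in each WT library, while their order differed among the cKO libraries. Next in order were Cd151, with 38.4 ± 6.01 in cKO and 38.3 ± 4.05 in WT, and Bcam, with 40.7 ± 5.81 in cKO and 35.4 ± 6.22 in WT. The order of Cd151 and Bcam differed among the libraries of each genotype, and no levels between genes were tested. In all, 11 genes reached a mean of 10 FPKM in both genotypes and 12 stayed below 1 FPKM in both. These are Lamb1, Fermt2, Col4a6, Frem2, Col4a1, Fras1, Nid1, Col4a2, Fn1, Itga9, Col4a4 and Nid2, so 2 of the 4 called genes, Nid1 and Col4a4, are among the least abundant. The hemidesmosome genes Col17a1, Itga6, Cd151, Itgb4 and Plec were all among the 11, while each type IV collagen chain and Fn1 had means below 2 FPKM.

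**Figure D2:**
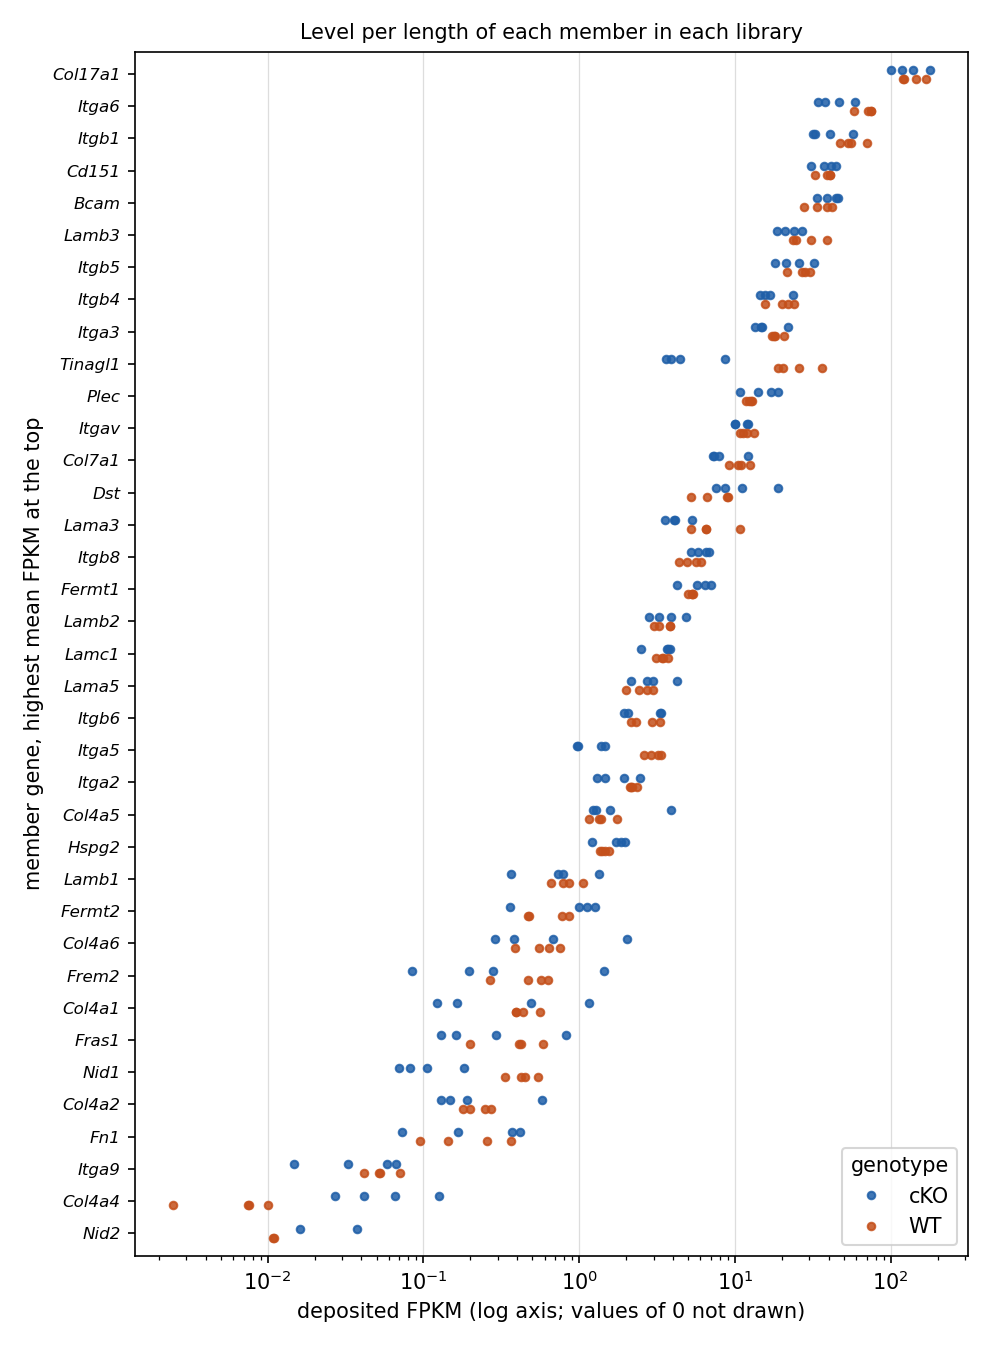
Deposited FPKM on a log axis for the 37 genes in order of their mean, with a point for each library, cKO above WT. Col17a1 is the highest gene, at 134 FPKM in cKO and 139 in WT, and 12 genes have means below 1 FPKM in both genotypes.

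In the hemidesmosome, none of the 6 genes passed the test. Col17a1 was at 555, 817, 915 and 604 CPM in cKO libraries 1 to 4, against 798, 957, 692 and 691 CPM in WT libraries 1 to 4. The genotypes overlapped throughout, with a log2 fold change of -0.12 ± 0.18 (SE) and an adjusted p of 0.781 in edgeR. Its 95% interval, 69.4% to 122% of WT, limits the change that these libraries allow.

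Itga6, the α chain that pairs with integrin β4 in hemidesmosomes, is given by library although it was chosen after its values were seen. It was at 205, 383, 264 and 213 CPM in cKO, against 428, 466, 366 and 462 CPM in WT. Replicate 2 was the highest cKO library and the only one above the lowest WT value, that of replicate 3. The log2 fold change was -0.69 ± 0.20, or 61.9% of WT, with an edgeR adjusted p of 0.109. That p fell to 0.0169 without cKO replicate 2. As this is the cKO library that overlaps WT, the smaller p follows from the choice of library and is no support. More genes were also called over all genes without it. Itgb4, the partner of Itga6, ranged over 93.5 to 140 CPM in cKO and 105 to 158 CPM in WT (log2 fold change -0.27, adjusted p 0.402 in edgeR). The ratio of Itga6 to Itgb4, in FPKM, was 1.62 to 4.07 in cKO and 3.14 to 3.71 in WT, so the pair was less even among the cKO libraries and the genotypes overlapped.

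Dst, whose epithelial product BPAG1e links keratin to the plaque, was at 309, 383, 729 and 422 CPM in cKO and 361, 380, 284 and 218 CPM in WT, and was also chosen after its values were seen. The cKO mean rested on replicate 3, which stood far above the other libraries. Its log2 fold change was 0.57 ± 0.27 (edgeR adjusted p 0.305), and 0.27 without cKO replicate 3. Gene-level counts do not separate the epithelial form of Dst from its neuronal and muscle forms. Plectin (Plec), which binds keratin to integrin β4, had 203 to 306 CPM in cKO and 212 to 237 CPM in WT (adjusted p 0.405), and the tetraspanin Cd151 had 66.0 to 83.0 CPM in cKO and 68.1 to 84.6 CPM in WT (adjusted p 0.803), both in edgeR. The genotypes thus overlapped for all 6 hemidesmosome genes, where 11.1% of all tested genes had no overlap. Overlap does not mean equal levels, as Itga6 at 61.9% of WT shows.

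Col7a1, which forms the anchoring fibrils, was at 67.0, 78.0, 105 and 62.8 CPM in cKO, against 99.7, 118, 102 and 86.7 CPM in WT. Only cKO replicate 3 reached the WT range. This is a log2 fold change of -0.38 ± 0.17, with an edgeR adjusted p of 0.277.

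Among the 6 laminin chains, Lama3 alone had no overlap between genotypes, beside 11.1% of all tested genes, and none was called. Lama3, the α chain of the hemidesmosomal laminin, was at 42.5, 52.5, 59.3 and 44.7 CPM in cKO, against 76.9, 131, 65.1 and 79.0 CPM in WT. Each cKO library lay below each WT library, by the smallest margin between cKO replicate 3 and WT replicate 3. The log2 fold change was -0.82 ± 0.22, or 56.5% of WT with a 95% interval of 40.4% to 79.1%, and the edgeR adjusted p was 0.0878. The exact permutation p of 0.0286 follows from the lack of overlap, for which Lama3 is listed, and is no second test.

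Lamb3, the β chain of the same laminin, was at 80.0, 96.9, 108 and 95.1 CPM in cKO, against 130, 172, 106 and 108 CPM in WT. Replicate 3 was the highest of the cKO libraries and reached the lowest WT values. Its log2 fold change was -0.44 ± 0.17 with an edgeR adjusted p of 0.206.

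The FPKM ratio of Lama3 to Lamb3 was 0.169 to 0.197 in cKO and 0.212 to 0.275 in WT, with no overlap. This ratio describes unequal levels within a library and was not tested. The other laminin chains, which belong to laminins made more widely, stayed in overlapping ranges. Lama5 had 26.3 to 45.0 CPM in cKO and 23.3 to 35.0 in WT, and Lamc1 had 20.4 to 28.0 CPM in cKO and 23.5 to 29.0 in WT. Lamb2 had 16.8 to 25.2 CPM in cKO and 17.5 to 22.4 in WT, and Lamb1 had 2.27 to 7.75 CPM in cKO and 3.80 to 6.32 in WT. Their log2 fold changes lay between -0.13 and 0.18, and the signs for Lamb1, Lamb2 and Lamc1 changed when single libraries were left out.

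**Figure D3:**
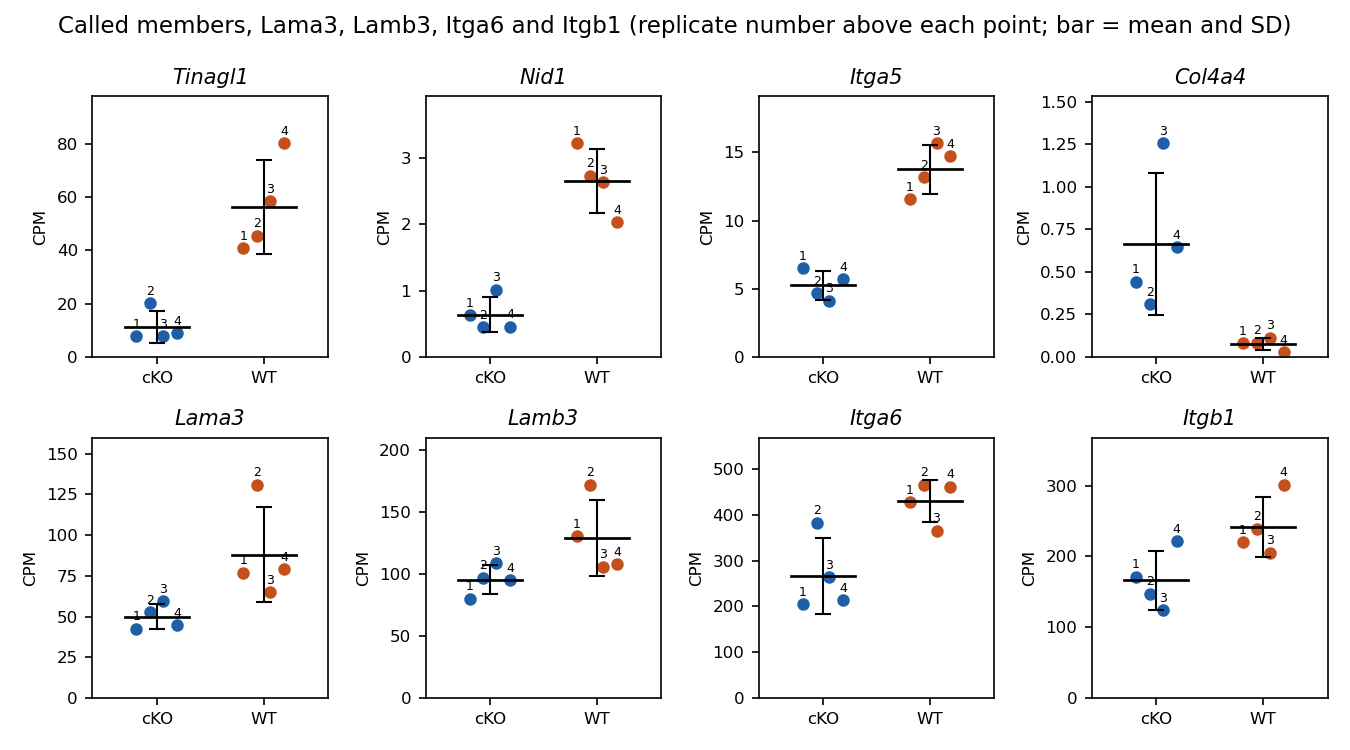
CPM in each library for genes given library by library, cKO points left of WT points, with lines at the means, bars of 1 SD and the replicate number above each point. The cKO and WT points do not overlap for Tinagl1, Nid1, Itga5, Col4a4 and Lama3, and overlap for Itga6, where cKO replicate 2 at 383 CPM lies above the lowest WT library at 366 CPM.

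Of the 9 integrin chains outside the hemidesmosome, Itga5 fell and the other 8 did not pass the test. Of the 9 log2 fold changes, 8 were negative, while 51.9% over all tested genes were positive. The signs are not separate observations, as cKO replicate 3 was the lowest library for Itga2, Itga3, Itga5, Itgav, Itgb1 and Itgb6. Itga5, which pairs with β1 to bind fibronectin, was at 6.50, 4.65, 4.13 and 5.69 CPM in cKO, against 11.6, 13.2, 15.7 and 14.7 CPM in WT. Every cKO library lay below every WT library. This is a log2 fold change of -1.39 ± 0.18, with a 95% interval of 28.8% to 50.3% of WT and an edgeR adjusted p of 0.0172. The exact permutation p of 0.0286 follows from that lack of overlap. The call was lost without WT replicate 3 (adjusted p 0.0790) and without WT replicate 4 (0.0573) in the same edgeR test, with log2 fold changes of -1.33 and -1.36.

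Itgb1, the common β chain of most of these receptors, was at 171, 147, 124 and 222 CPM in cKO, against 220, 239, 206 and 301 CPM in WT. Only cKO replicate 4 reached the WT range. The log2 fold change was -0.54 ± 0.19, or 68.7% of WT, with an edgeR adjusted p of 0.174. The ratio of Itga5 to Itgb1, in FPKM, was 0.0241 to 0.0356 in cKO and 0.0458 to 0.0715 in WT, with no overlap. This follows largely from the Itga5 values given above, so it is no second result, and the ratio was not tested.

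Among the collagen- and laminin-binding α chains, Itga2 had 9.67 to 16.1 CPM in cKO and 14.9 to 17.4 in WT, and Itga3 had 74.2 to 108 CPM in cKO and 94.4 to 113 in WT. Their edgeR adjusted p-values were 0.300 and 0.353. Of the αv receptors, which bind fibronectin, vitronectin or latent TGF-β, Itgav itself had 65.2 to 97.5 CPM over all libraries, lowest in cKO replicate 3 and highest in WT replicate 3. Its partners Itgb5 (56.4 to 101 CPM in cKO and 74.0 to 102 in WT), Itgb6 (10.5 to 18.0 in cKO and 12.1 to 18.9 in WT) and Itgb8 (47.0 to 59.8 in cKO and 40.2 to 52.4 in WT) all overlapped between genotypes. Itga9, whose product binds tenascin, was at 0.498 CPM or less in each library. Itgb8 was the only one of the 9 with a positive log2 fold change, 0.16 ± 0.12.

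The Lutheran laminin receptor and the kindlins, which activate integrins from inside the cell, did not pass the test. Bcam, which binds the laminin α5 chain, was at 107, 86.2, 87.0 and 103 CPM in cKO, against 92.9, 103, 69.5 and 82.4 CPM in WT. The genotypes overlapped, with a log2 fold change of 0.14 ± 0.14 (edgeR adjusted p 0.638). Fermt1, the kindlin of epithelia, had 23.8 to 34.6 CPM in cKO and 26.7 to 29.2 in WT, and Fermt2 had 1.37 to 4.19 CPM in cKO and 1.71 to 3.15 in WT. WT libraries lay within the cKO range for both kindlins.

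Of the linker proteins of the membrane, Tinagl1 and Nid1 fell and Hspg2 did not pass the test. Tinagl1 was at 7.83, 20.2, 7.84 and 8.97 CPM in cKO, against 40.9, 45.6, 58.6 and 80.3 CPM in WT. The highest cKO library, replicate 2, was still below the lowest WT library. Its log2 fold change was -2.33 ± 0.35 with a 95% interval of 11.5% to 34.4% of WT and an edgeR adjusted p of 0.0279. The exact permutation p of 0.0286 follows from the lack of overlap. The call was lost without cKO replicate 1 or 3 or WT replicate 2, 3 or 4, where the edgeR adjusted p was 0.0566 to 0.0866 and the log2 fold change -2.11 to -2.42.

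Nid1, which bridges laminin and type IV collagen, was at 0.624, 0.448, 1.01 and 0.452 CPM in cKO, against 3.22, 2.74, 2.64 and 2.03 CPM in WT. These are low levels, and the genotypes did not overlap. This is a log2 fold change of -2.06 ± 0.33 with a 95% interval of 14.3% to 40.2% of WT and an edgeR adjusted p of 0.0301. The exact permutation p of 0.0286 follows from the lack of overlap. The call was lost without cKO replicate 1 or any WT replicate, where the edgeR adjusted p was 0.0665 to 0.0866 and the log2 fold change -1.95 to -2.17. In the mouse annotation used here (GENCODE M21), 2.06% of the exon bases of Nid1 overlap a gene on the opposite strand, whose reads cannot be told apart because the strand setting is not given.

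Nid2 had 7, 3, 0 and 0 reads in cKO and 2, 2, 0 and 0 in WT, too few to test. Hspg2, which encodes perlecan, had 18.6 to 26.5 CPM in cKO and 20.1 to 22.9 in WT (log2 fold change 0.15, edgeR adjusted p 0.562). In bulk RNA, fewer cells of a type and less RNA per cell cannot be told apart, and that holds for each gene here. Nid1 is also made by dermal and vascular cells, so their markers stand beside it. The 13 fibroblast markers summed to 4.86 to 7.62 CPM in cKO and 2.19 to 13.1 in WT, with 7 tested and none called. Of these 7, 4 had positive and 3 negative log2 fold changes. Col1a1 was at 0.26 to 1.20 CPM in cKO and 0.134 to 3.01 in WT. Col6a1 of the same list was higher in each cKO library than in any WT library (log2 fold change 2.01, edgeR adjusted p 0.196). The 10 endothelial markers summed to 2.77 to 7.39 CPM in cKO and 5.22 to 14.1 in WT, with 4 tested, all with negative log2 fold changes, and none called. Cdh5 was at 0.332 CPM or less in each library, but other markers had levels like those of Nid1, up to 9.80 CPM for Flt1, 1.36 for Pecam1 and 3.23 for Col3a1. Tie1, of endothelium, was at 0.0482 to 0.702 CPM in cKO and 1.07 to 1.82 in WT, with no overlap (edgeR adjusted p 0.203). The mural list had 3 of 7 markers tested and none called, with Rgs5 near 0, and summed to 79.5 to 92.2 CPM in cKO and 107 to 127 in WT, almost all of it Notch3, which keratinocytes also express. Acta2, of smooth muscle, was at 0.308 to 1.33 CPM in cKO and 2.25 to 10.04 in WT (edgeR adjusted p 0.0530). Cspg4, also tested on the mural list, went the other way with no overlap. It was at 4.37 to 8.95 CPM in cKO and 2.30 to 3.68 in WT (edgeR adjusted p 0.0550). The mural sum, Acta2 and Tie1 were lower in each cKO library than in any WT library, as Nid1 and Tinagl1 were, beside 5.82% of all tested genes. The endothelial sum and the tested endothelial markers Pecam1, Flt1 and Egfl7 overlapped between genotypes. Cspg4 and Col6a1 were higher in each cKO library, and the part of these markers in those results was not tested.

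The Fraser complex, which anchors epidermis to dermis in the embryo, was low in both genotypes and uneven among cKO libraries. Frem2 was at 4.58, 6.97, 31.2 and 1.83 CPM in cKO, against 13.1, 15.0, 11.5 and 6.40 CPM in WT. Replicate 3 was above all WT libraries, and replicates 1 and 4 were below them all. The log2 fold change was -0.04 ± 0.72 (edgeR adjusted p 0.984), and -1.36 without cKO replicate 3. Fras1 was at 15.1 CPM in cKO replicate 3, against 2.38 to 5.75 in the other cKO libraries and 4.04 to 12.0 in WT, and its log2 fold change was -0.30, or -1.08 without that library.

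Type IV collagen forms the network of the membrane, and its chains are made in pairs from shared, head-to-head promoters (Col4a1 with Col4a2, Col4a3 with Col4a4, Col4a5 with Col4a6). Of the 5 chains on the list, Col4a4 rose and the other 4 did not pass the test. Col4a4 was at 0.442, 0.308, 1.25 and 0.642 CPM in cKO, against 0.0786, 0.0829, 0.111 and 0.0268 CPM in WT. These are 17, 11, 52 and 27 reads in cKO and 3, 3, 4 and 1 reads in WT, and the gene passed the filter on low counts only through its cKO libraries. The genotypes did not overlap, and replicate 3 was the highest cKO library. Its log2 fold change was 3.10 ± 0.59, an 8.57-fold difference with a 95% interval of 3.40 to 21.6, and the edgeR adjusted p was 0.0417. The call was lost on leaving out any single library except cKO replicate 2, with edgeR adjusted p-values of 0.0590 to 0.124 and log2 fold changes of 2.61 to 3.34. Its partner Col4a3, which is not on the list and had too few reads to test, was at 0.104, 0.196, 0.458 and 0.238 CPM in cKO, against 0.157, 0.0276, 0.0278 and 0.0535 CPM in WT, and is named after its values were seen. Only cKO replicate 1 lay within the WT range for Col4a3.

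Col4a5, the most abundant type IV chain here, was at 8.32, 11.1, 23.7 and 7.42 CPM in cKO, against 8.76, 9.34, 12.0 and 7.76 CPM in WT. Replicate 3 stood above every other library, and the remaining cKO libraries were close to the WT range. This is a log2 fold change of 0.42 ± 0.35 (edgeR adjusted p 0.565), and -0.07 without cKO replicate 3. Col4a6 (1.95 to 12.9 CPM in cKO and 2.68 to 5.33 in WT), Col4a1 (0.806 to 7.09 in cKO and 2.57 to 3.77 in WT) and Col4a2 (0.832 to 3.47 in cKO and 1.15 to 1.83 in WT) were likewise highest in cKO replicate 3. Their log2 fold changes of 0.46, 0.04 and 0.13 became -0.38, -0.78 and -0.55 without cKO replicate 3, so these chains have no direction that holds across the cKO libraries. Fn1, the fibronectin gene, was at 3.15, 1.51, 3.28 and 0.571 CPM in cKO, against 2.15, 3.15, 1.28 and 0.830 CPM in WT. Fn1 varied as much within as between genotypes (log2 fold change 0.20 ± 0.57, edgeR adjusted p 0.892).

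**Figure D4:**
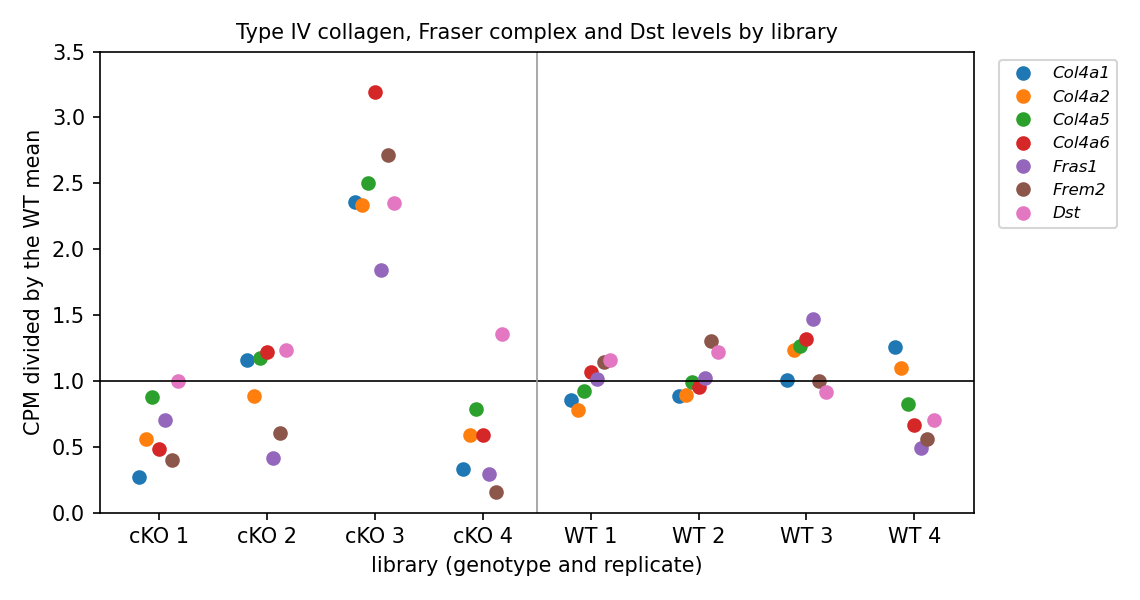
Level in each library over the WT mean, on a linear axis from 0, for 4 type IV collagen chains, the Fraser complex genes and Dst, with cKO libraries left of WT libraries. In cKO replicate 3, Col4a1, Col4a2, Col4a5, Col4a6, Frem2, Fras1 and Dst lie between 1.84 and 3.19 times the WT mean.

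High values in cKO replicate 3 were found in several of these roles. That library was the highest of the 8 libraries for 12 of the 36 tested genes, or 33.3%, beside 17.0% of all tested genes, and these were Col4a1, Col4a2, Col4a4, Col4a5, Col4a6, Fras1, Frem2, Dst, Lama5, Lamb2, Fermt1 and Fn1. Relative to the WT mean it had 3.19 times the Col4a6 level, 2.71 times Frem2, 2.50 times Col4a5, 2.36 times Col4a1, 2.35 times Dst, 2.34 times Col4a2 and 1.84 times Fras1. The same library was the lowest of the 8 for 7 genes (Itga2, Itga3, Itga5, Itgav, Itgb1, Itgb4 and Itgb6), or 19.4%, which is near the 17.9% of all tested genes. The integrin genes Itgb5, Itgb8 and Itga9 were not low there, at 1.10, 1.13 and 0.99 times the WT mean. The 8 basal keratinocyte markers summed to 14637 CPM in that library, against 21319 to 27130 in the other cKO libraries and 23194 to 34865 in WT, and nearly all of that sum is Krt5 and Krt14. Other markers of the list were mixed: Trp63 (389 CPM), Igfbp3 (282 CPM) and Sostdc1 (149 CPM) each had their highest cKO value in replicate 3. Pdpn (5.98 CPM) was the lowest of the 8 libraries there, and Wnt4 and Dll1 lay within the range of the other cKO libraries. Krt15, of the follicle bulge list, was at 1295 CPM there, against 348 to 500 in the other cKO libraries and 217 to 529 in WT. That list was mixed too. Krt79 (3129 CPM), Lgr5 (9.50), Lgr6 (46.3) and Lhx2 (19.3) also had their highest cKO value in replicate 3. Krt17 (1389 CPM) and Krt75 (23.9) had their lowest cKO value there, and Cd34, Sox9, Postn and Tbx1 lay within the range of the other cKO libraries. The part of these cell markers in the collagen and Fraser values was not tested. Replicate 2 of cKO was the highest library for none of the 36 genes, beside 16.0% of all tested genes, and the lowest for 10, or 27.8%, beside 13.6%.

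**Figure D5:**
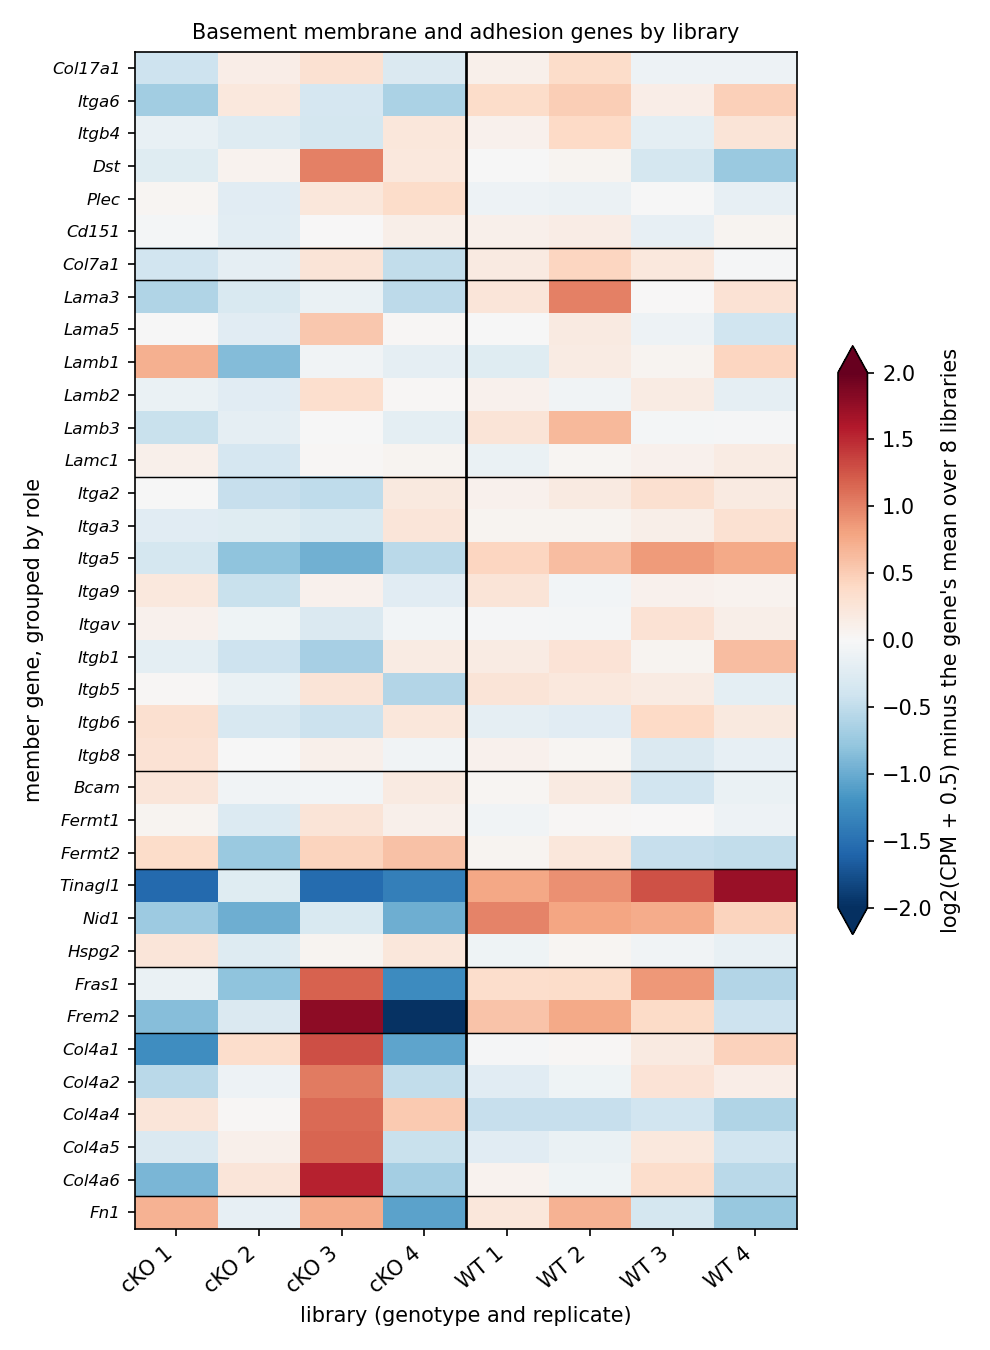
Log2(CPM + 0.5) minus its mean over the 8 libraries for the tested genes by role, cKO columns left of WT columns. The cKO replicate 3 column is high for type IV collagen and Fraser genes, and Tinagl1, Nid1 and Itga5 are low across all 4 cKO columns.

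The keratinocyte layers and follicle cells that make these proteins were read from marker lists. Of the 8 basal markers and the 9 suprabasal markers none was called, and the suprabasal sums were 43627 to 84039 CPM in cKO and 49138 to 77736 in WT. Of the 11 markers of the follicle outer root sheath and bulge, 3 were called, all higher (Krt75, Krt79 and Lgr6), beside 0.671% of all tested genes. The list summed to 4716 to 6808 CPM in cKO and 3351 to 3802 in WT, with no overlap. Most of that sum was Krt17 and Krt79. The genotypes overlapped for Krt17, Krt15, Sox9 and Tbx1. The follicle list is thus the only one of the keratinocyte lists with called genes. Of the 10 leukocyte markers none was called, with sums of 1097 to 3917 CPM in cKO and 1883 to 7675 in WT. The adipocyte sum was 8.54 to 31.2 CPM in cKO and 38.8 to 65.9 in WT, where Fabp4 made up most of it, with 2 of 6 markers tested and none called. The other tested adipocyte marker, Pparg, went the other way, at 4.59 to 10.7 CPM in cKO and 1.92 to 4.98 in WT (edgeR adjusted p 0.0981), and Plin1 and Cfd were at or near 0. Of the Schwann cell and nerve markers, 5 of 7 were tested and none called (24.6 to 34.7 CPM in cKO and 29.9 to 44.9 in WT). The follicle sum and Fabp4 did not overlap between genotypes, as the called genes did not, and their part in these results was not tested.

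Other genes of the same pathways were counted in lists that hold none of the 37. Over all tested genes 1.32% were called. Of 25 further basement membrane genes 22 were tested, and 1 was called. It is Smoc1, a calcium-binding matrix protein, at 3.54, 1.18, 2.92 and 5.73 CPM in cKO, against 0.419, 0.221, 0.417 and 0.268 CPM in WT, a log2 fold change of 3.32 (edgeR adjusted p 0.0279). The genotypes did not overlap for Smoc1, and its call was lost without cKO replicate 1 or any WT replicate, at edgeR adjusted p-values of 0.0573 to 0.0929. Lama1 of this list was at 0.224 to 0.702 CPM in cKO and 1.42 to 1.85 in WT (edgeR adjusted p 0.0550), and is named after its values were seen. Its most abundant uncalled genes, Tgfbi and Lad1, had log2 fold changes of -0.59 and -0.09 (adjusted p 0.190 and 0.783 in edgeR).

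Of 15 further integrin chains, mostly those of leukocytes, 12 were tested and none was called, with log2 fold changes of -0.68 for Itgae and -0.32 for Itgb2. Of 31 focal adhesion genes 29 were tested and 1 was called, beside 1.32% of all tested genes. Vcl, which encodes vinculin and links talin to actin, was at 75.7, 77.8, 67.6 and 78.9 CPM in cKO, against 105, 124, 120 and 146 CPM in WT, or 60.5% of WT (edgeR adjusted p 0.0301). All cKO libraries lay below all WT libraries, and the call was lost without cKO replicate 1 or 3 or WT replicate 2, 3 or 4, at edgeR adjusted p-values of 0.0630 to 0.0868. The most abundant uncalled genes of that list, Actn4 and Tns4, had log2 fold changes of -0.22 and 0.02. Of 17 collagen modification enzymes and chaperones 12 were tested and none was called, with -0.32 for P4hb and 0.05 for Serpinh1. Outside the 37 genes, then, 1 further matrix gene rose and 1 further adhesion gene fell, and the remaining tested genes of these 4 lists did not pass the test. Whether a single call in a list exceeds the share over all genes was not tested.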

How the data were processed

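Epidermal RNA of 8 imiquimod-treated mice, 4 cKO and 4 WT, was sequenced. The authors deposited a table of raw read counts for each symbol and a table of FPKM values of the same libraries, made with HISAT2 and HTSeq per the submitters' processing notes. Not given in the sources used here are the tool versions, strandedness, annotation and genome build. The deposited FPKM values equal the counts scaled by gene length and column total for 20863 of 20863 genes checked (relative tolerance 1e-04), so both tables hold the same reads.

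The counts were tested with edgeR 4.0.16 in R 4.3.3: filterByExpr kept 14004 genes, libraries were scaled with TMM factors (0.934 to 1.08), and the quasi-likelihood test compared cKO with WT with no covariate, adjusted by the Benjamini-Hochberg method. Standard errors are those implied by the F statistic. The scripts were tested on simulated data. Alternatives were limma 3.58.1 (voom, and log2 FPKM with a pseudocount of 1 or 0.1), DESeq2 1.42.0, other scalings and filters, a replicate block and leaving out each library. No pair of libraries of the same genotype agreed within counting noise (lowest chi-square per degree of freedom 47.9). Pairs of a cKO with a WT library were not compared in this way. Nothing but the stated number of mice says that libraries are separate animals; if they were not, p-values would measure technical spread only.

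The 37 genes, the pathway and marker lists and the alternatives were chosen with earlier results of these data known. A gene of the 37 is given in every library if it was called, did not overlap between genotypes or had the highest FPKM of its role; the others are given as ranges. From the pathway lists, called genes and up to 2 abundant uncalled genes are named. Other genes of the 37 and of the pathway lists outside this rule are marked where they appear. The marker lists were planned as counts and sums only, and single markers were named after their values were seen. Sequences come from RefSeq. The results of 1 further gene are not reported here.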

Additional observations from a re-analysis of the deposited data

Results flagged for a closer look

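In groups of 4 libraries, a single library can stand far from the other 3. The gap to the nearest library, divided by the range of the group, passed Dixon's 95% critical value in 2 of the 94 groups examined, and chance gives about 1 in 20. Itga3 was at 108 CPM in cKO replicate 4, against 74.2 to 78.1 CPM in the other cKO libraries, so its cKO mean lies above 3 of its 4 values. Tinagl1 was at 20.2 CPM in cKO replicate 2, against 7.83 to 8.97 CPM in the other cKO libraries, and remained called without that library. The type IV collagen, Fraser and Dst values of cKO replicate 3 did not pass this threshold.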

How the results depend on the processing

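Over all genes, 185 were called, against 1208 with DESeq2, 349 with no filter on low counts, 19 with limma on log2(FPKM + 1) and no filter, and 8 to 506 when single libraries were left out (8 without WT replicate 3, 506 without cKO replicate 2). Of the 37 genes, 3 were called lower, against 5 with DESeq2 (Lama3 and Itga6 added), 0 with limma on log2(FPKM + 1) and no filter, and 0 to 4 without single libraries (0 without WT replicate 3 or 4). The 1 called higher, Col4a4, became 0 with limma-voom, with a minimum of 1 CPM in 4 libraries, with all 3 versions of limma on log2 FPKM, and 0 to 1 without single libraries. Same-numbered libraries did not all deviate together (correlations -0.10, 0.13, 0.10 and 0.19, with 2 of 4 cKO libraries correlating best with their own number). With the replicate number as a block, 216 genes were called over all genes and 0 of the 37 were called higher, with Col4a4 at an adjusted p of 0.0561 in edgeR. Of the alternatives that tested each gene, Itga5 stayed called in 15 of 18, Tinagl1 in 12 of 18, Nid1 in 10 of 16 and Col4a4 in 5 of 15, all in the same direction. The number of genes with no overlap, 5, was the same with RLE factors and with library size only.

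Signs turned only for genes that were not called. With library size only, log2 fold changes were 0.0038 for Lamc1, 0.0053 for Cd151 and 0.046 for Frem2, and with no filter Lamb2 was at -0.0050. With limma-voom, Col4a1 was at -0.49 and Col4a2 at -0.10, and with log2(FPKM + 1) and no filter Col4a1 was at -0.013. With the replicate block, Lamb2 was at -0.0043, Col4a1 at -0.46 and Col4a2 at -0.10. Without single libraries, the log2 fold change ran over -0.21 to 0.055 for Itgb6, -0.50 to 0.11 for Lamb1, -0.11 to 0.099 for Lamb2, -0.11 to 0.041 for Lamc1, -0.13 to 0.013 for Cd151, -1.36 to 0.32 for Frem2, -0.78 to 0.36 for Col4a1, -0.55 to 0.35 for Col4a2, -0.074 to 0.61 for Col4a5, -0.38 to 0.74 for Col4a6, -0.077 to 0.59 for Fn1, -0.14 to 0.018 for Lad1, -0.068 to 0.14 for Tns4 and -0.11 to 0.25 for Serpinh1. The cause was not tested. With 4 libraries per genotype, an exact permutation test cannot go below 0.0286, and genes with few reads, such as Col4a4, Nid1 and Nid2, are limited by counting error.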
